A study of Mus musculus with 8 samples.

Results

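The genes described here are 10 genes that mark the contractile and supporting cells of blood vessels, that is, pericytes and smooth muscle cells (together, mural cells): Acta2, Actg2, Myh11, Tagln, Cnn1, Rgs5, Pdgfrb, Cspg4, Mcam and Abcc9. They were chosen by name, as genes commonly used as mural markers, and all 10 were found among the 24980 genes of the count table. All 10 were among the 17582 genes that passed the filter on low counts. The 8 RNA-seq libraries came from 4 groups of mouse skeletal myogenic cells with 2 biological replicates each. TF were progenitors freshly sorted from teratomas that EGFP-labelled E14 embryonic stem cells formed in irradiated, cardiotoxin-injured tibialis anterior muscles of NSG-mdx4Cv mice. They were sorted as CD31-, CD45-, α7-integrin+ and VCAM-1+, so the sort was gated against endothelial and blood cells by surface protein. It used no negative gate for mural cells, which the positive gates would admit only with both α7-integrin and VCAM-1. TE were the same kind of cells at passage 8 of culture in myogenic expansion medium, SF were satellite cells freshly isolated from adult muscle, and SE were satellite cells at passage 8. The teratoma-derived groups come from 1 embryonic stem cell line, and the labels give no strain or age for the satellite cells.

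Mural cells wrap capillaries and larger vessels and adjust their bore. Smooth muscle cells contract through smooth muscle actins and myosin, with calponin and transgelin bound to the actin filaments, and these genes are switched on by serum response factor (SRF) with its partner myocardin. Pericytes are recruited to vessels by PDGF-B acting on the receptor PDGFRβ, and carry NG2 (Cspg4), CD146 (Mcam), the G protein regulator Rgs5 and the potassium channel subunit SUR2 (Abcc9). Several of these genes are also used outside vessels: embryonic and regenerating skeletal muscle cells express smooth muscle α-actin (Acta2) before the sarcomeric actins, and Pdgfrb is also found in fibroblasts.

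Total counts ran from 11930961 in the first TF library to 21146632 in the first SE library. Levels are given as normalised counts (the deposited count divided by the median-ratio size factor of the library), with replicate 1 before replicate 2. A library with 3 counts or fewer of a gene was taken to be at the limit of detection, which corresponds to 2.15 to 3.89 normalised counts. A gene was called higher or lower where edgeR's quasi-likelihood test gave a Benjamini-Hochberg adjusted p below 0.05 over all tested genes and a log2 fold change above 0.322 in size, the thresholds of the study. Values after ± are approximate standard errors, with n = 2 libraries a group. They were derived from the test, as the size of the log2 fold change divided by the square root of its F statistic. Every library held the myogenic marker genes: Pax7, the transcription factor of satellite cells, averaged 3990 normalised counts in TF, 1372 in TE, 4313 in SF and 1458 in SE. Both fresh groups also held RNA of genes that mark other cell types. The summed level of 10 endothelial genes was 1616 to 5244 in TF and 6791 to 8357 in SF, and that of 8 fibro-adipogenic genes was 78016 to 87778 in TF and 23814 to 39737 in SF. The gap in the fibro-adipogenic sum came mainly from Col15a1, at means of 53861 in TF and 6756 in SF. Dcn was alike (12872 and 12939), Lum was higher in TF (4756 and 1145) and Smoc2 higher in SF (2145 and 3965). In bulk RNA, fewer cells of a type and less RNA per cell cannot be told apart.

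Culture expansion changed the 10 genes in unlike ways. Between TF and TE, 1 gene rose (Acta2), 6 fell (Myh11, Tagln, Rgs5, Pdgfrb, Cspg4 and Abcc9) and 3 did not pass (Actg2, Cnn1 and Mcam). Over all tested genes 9.86% were called higher and 16.2% lower in that comparison. Between SF and SE, 1 gene rose (Acta2), 8 fell and 1 did not pass (Cspg4), against 20.9% called higher and 19.8% lower over all tested genes. DESeq2, which uses other size factors, moved the split of all calls in that comparison from 51.4% higher to 40.8% higher. Leaving out the single gene Rn45s (ribosomal RNA) moved it to 45.7%. The median log2 fold change of the 10 genes was -1.32 for TE against TF and -2.19 for SE against SF, where the medians over all tested genes were -0.18 and -0.23. Median-ratio size factors in place of TMM scaling moved the median of all genes from -0.23 to -0.43 for SE against SF, from 0.08 to -0.08 for TF against SF and from -0.18 to -0.04 for the difference between the expansion effects. The other 2 comparisons moved by less than 0.1.

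**Figure D1:**
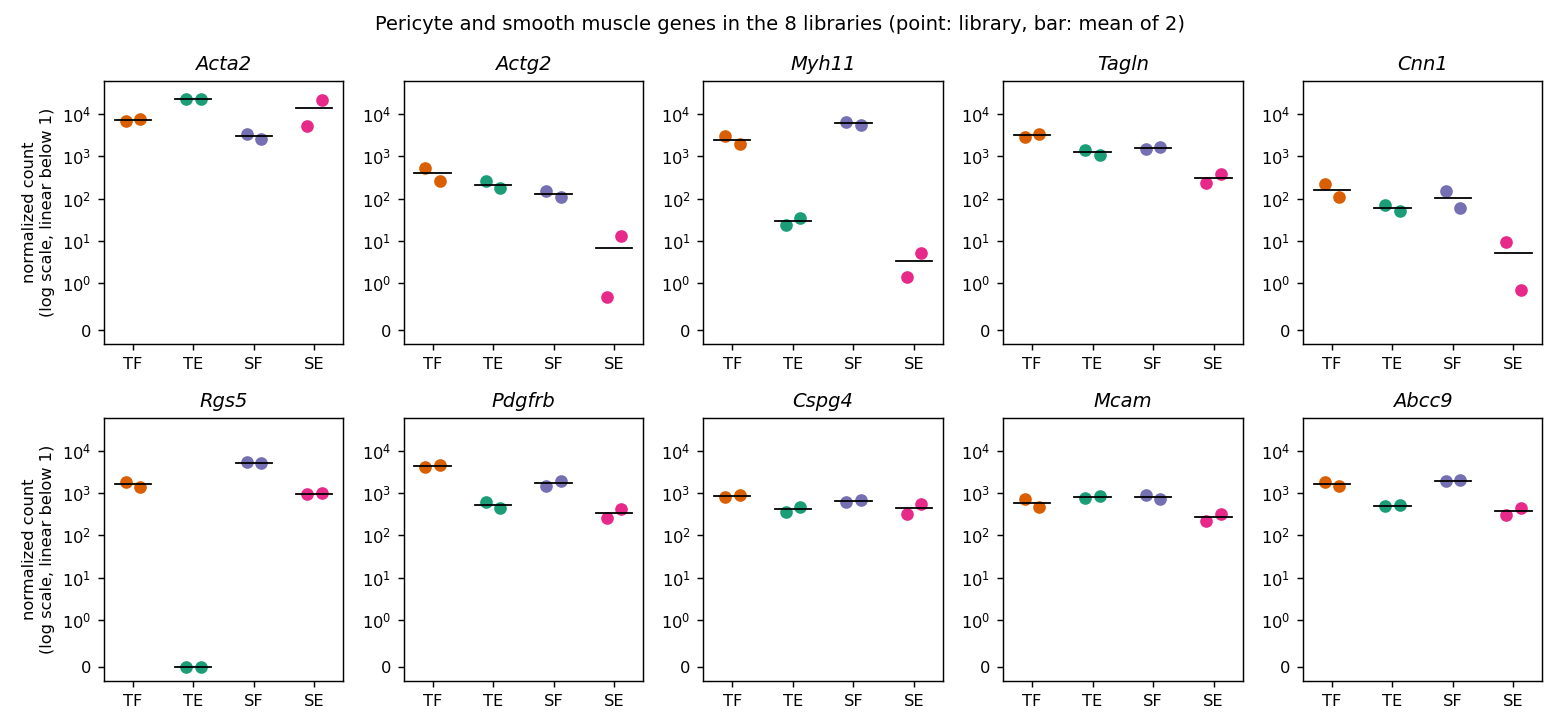
Normalised counts (log scale, linear below 1) of the 10 genes in TF, TE, SF and SE, with a point for each library and a bar for the mean of 2. Acta2 was higher in TE and SE than in the fresh cells of the same origin, Myh11 fell to 34.7 or less in every expanded library, and Rgs5 was at 0 in TE but at 943.4 and 984.3 in SE.

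The promoters of Acta2 and Rgs5 are shown because these genes moved furthest apart between TF and TE. RefSeq promoters (GRCm38.p6, from 250 bases before to 50 bases after the start, 300 bases) were matched for 6 of the 10 genes: Acta2, Rgs5, Cspg4, Cnn1, Mcam and Abcc9. The windows were searched for the CArG box, the 10-letter site of SRF, and for the E-box CANNTG, the core site of MyoD and related factors, whose consensus letters are palindromic, so that both strands were covered. The Acta2 window (chr19:34255324-34255623, minus strand) and the Rgs5 window (chr1:169655251-169655550, plus strand) read as follows, 5′ to 3′, with CArG boxes that have up to 1 difference in capitals.
Acta2: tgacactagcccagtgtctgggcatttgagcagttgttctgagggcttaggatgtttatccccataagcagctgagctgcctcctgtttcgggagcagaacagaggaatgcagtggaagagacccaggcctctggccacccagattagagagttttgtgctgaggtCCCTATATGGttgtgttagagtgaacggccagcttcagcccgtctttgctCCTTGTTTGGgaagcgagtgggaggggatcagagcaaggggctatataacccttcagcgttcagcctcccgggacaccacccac
Rgs5: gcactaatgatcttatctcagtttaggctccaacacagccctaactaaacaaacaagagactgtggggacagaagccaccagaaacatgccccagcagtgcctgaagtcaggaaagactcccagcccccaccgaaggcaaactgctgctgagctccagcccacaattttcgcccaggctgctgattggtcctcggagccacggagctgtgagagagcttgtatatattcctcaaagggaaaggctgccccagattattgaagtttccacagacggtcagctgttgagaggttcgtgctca

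The Acta2 window held 2 CArG boxes with 1 difference, at positions -84 and -34 from the start, and 3 E-boxes. The Rgs5 window held no CArG box with up to 1 difference and 1 E-box. Cspg4 held 2 overlapping boxes with 1 difference, at positions -238 and -237, and no E-box, and Cnn1, Mcam and Abcc9 held no CArG box. None of the 6 windows held an exact CArG box. Of 32851 promoters of the same length, 1.63% held an exact CArG box, 21.1% held 1 with up to 1 difference and 72.3% held an E-box. Acta2 and Rgs5 each held 6 CpG pairs, near the median of 7.0 over all promoters, while Mcam held 29. A match is a description of these letters and was not tested as a binding site.

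Acta2, which encodes smooth muscle α-actin, lies at chr19:34241090-34255590 on the minus strand (GRCm38, GENCODE M21). Its normalised counts were 6878 and 7672 in TF, 22590 and 22390 in TE, 3350 and 2602 in SF, and 5208 and 21850 in SE. TE stood above TF in both libraries, and the lower SE library stood above both SF libraries but below both TF libraries. The log2 fold change was 1.68 ± 0.51 (edgeR adjusted p = 0.0364) for TE against TF and 2.38 ± 0.52 (edgeR adjusted p = 0.00546) for SE against SF. The first call was lost when any of the TF or TE libraries was left out (log2 fold change 1.63 to 1.80). It held in the other settings run. The second call held in every setting run, but its size was 1.01 without the second SE library and 3.10 without the first. The spread was estimated over all 4 groups, so the gap between the SE libraries entered both tests. Per kilobase of transcript, Acta2 stood first among the 10 genes in all 4 groups and at the 96.5th to the 99.8th percentile of tested genes in every library.

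The other actins of each library give Acta2 a scale. Acta2 made up 7.37% to 9.35% of the summed level per kilobase of 6 actin genes in TF, 16.9% to 17.2% in TE, 2.53% to 4.02% in SF and 3.94% to 13.2% in SE. Actc1 and Acta1, the actins of cardiac and skeletal muscle sarcomeres, rose in both expansions. The log2 fold change of Actc1 was 4.53 ± 0.61 in teratoma-derived cells and 8.88 ± 0.76 in satellite cells (edgeR adjusted p = 0.000552 and 2.66e-05), and that of Acta1 was 1.82 ± 0.49 and 5.40 ± 0.58 (0.0228 and 8.99e-05). Actb and Actg1, the cytoplasmic actins, did not pass in either expansion, with log2 fold changes between -0.50 and 0.39. In TE, Actc1 took 27.3% to 27.6% of the actin level, more than Acta2. Actin genes are alike in their coding sequence, so reads shared between them could have been divided by the estimation of counts.

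**Figure D2:**
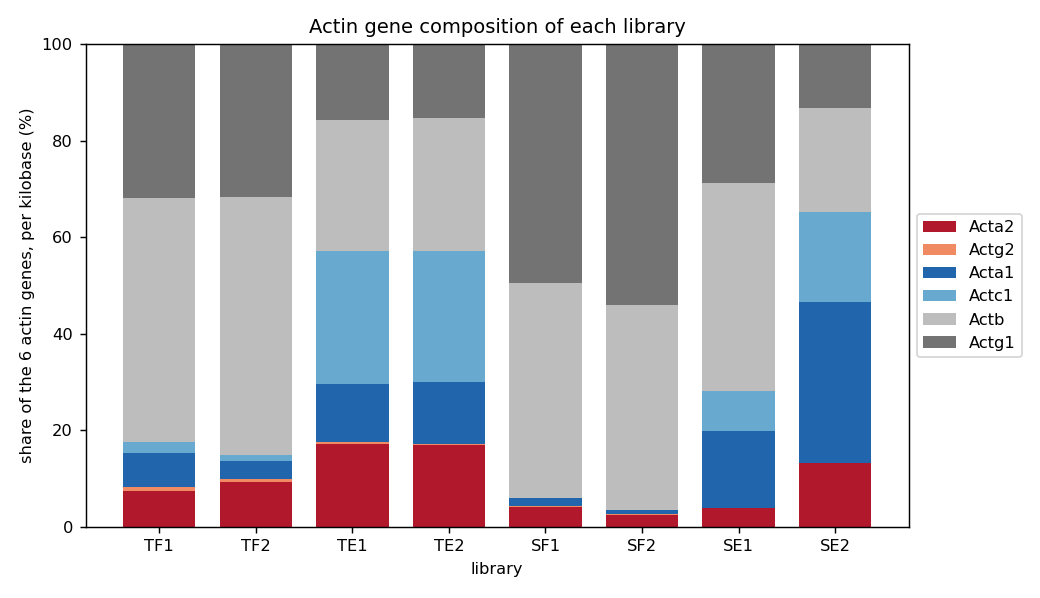
Share (%) of the 6 actin genes in their summed level per kilobase in each of the 8 libraries, as stacked bars from 0 to 100. Acta2 and the sarcomeric actins Acta1 and Actc1 took larger shares in TE and SE than in the fresh libraries of the same origin, except for Acta2 in the first SE library (3.94% against 4.02% in the first SF library).

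The gap between both SE libraries in Acta2 was shared by muscle differentiation genes. Myog, the transcription factor of differentiating myoblasts, was at 3993 and 13510 normalised counts in SE, Acta1 at 14826 and 39362, and Actc1 at 7951 and 22230. The summed level of 7 muscle differentiation genes was 96470 to 205092 in SE, 98734 to 103433 in TE, 6636 to 12220 in TF and 1271 to 1668 in SF. Of these 7 genes, 6 rose and none fell in each expansion. The part of differentiating cells in the Acta2 level was not tested. The 5 genes most alike to Acta2 over the 8 libraries were Creld1, Mtss1l, Limch1, Gyg and Slc38a7, at a root mean square difference of 0.305 to 0.418 on the centred log2 scale, out of 12681 genes with a mean of at least 50.

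Tagln encodes transgelin (SM22α), which binds actin filaments in smooth muscle, and lies at chr9:45929619-45936058 on the minus strand. It stood at 2904 and 3307 normalised counts in TF, 1440 and 1048 in TE, 1506 and 1687 in SF, and 230.3 and 376.7 in SE. It fell in both expansions without overlap, with log2 fold changes of -1.26 ± 0.26 in teratoma-derived cells (edgeR adjusted p = 0.00664) and -2.21 ± 0.27 in satellite cells (edgeR adjusted p = 0.000213). The first call was lost without the second TE library (edgeR adjusted p = 0.0735). TE nevertheless kept a level per kilobase at the 92.9th to 95.3rd percentile of tested genes, and SE stood at the 67.4th to 79.1st. The share of Tagln among the 3 transgelin genes was 49.5% to 54.8% in TF, 35.3% to 43.9% in TE, 29.4% to 29.9% in SF and 9.39% to 24.3% in SE, the rest being almost wholly Tagln2. Exons of Tagln overlap those of Pcsk7 on the opposite strand by 108 bases and those of Gm48529 by 1241 bases. The kit keeps strand, but how strand was treated in counting is not given in the sources used here.

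Myh11 encodes the smooth muscle myosin heavy chain, the most specific marker of mature smooth muscle among the 10, and lies at chr16:14194535-14291372 on the minus strand. Its normalised counts were 2968 and 1921 in TF, 23.2 and 34.7 in TE, 6601 and 5482 in SF, and 1.43 and 5.15 in SE. Every expanded library was far below every fresh one, and SE was below TE. The log2 fold change was -6.34 ± 0.37 for TE against TF (edgeR adjusted p = 5.31e-06). In SE only 2 and 6 counts were found. The pooled level in SF was 1930 times that in SE (95% counting interval 977 to 4460, from 9989 and 8 counts), with an edgeR adjusted p of 1.28e-06. Intervals of this kind cover counting error only. Leaving out the first or the second SE library gave -9.94 or -11.73 on the log2 scale.

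Among the smooth muscle and non-muscle myosin heavy chains, Myh11 made up 19.7% to 27.0% of the level per kilobase in SF, 6.63% to 10.2% in TF, 0.0595% to 0.0924% in TE and 0.00296% to 0.0158% in SE. Myh9, a non-muscle myosin that most cells use, made up 89.0% to 91.0% in SE and 90.1% to 90.2% in TE. Myh9 rose in both expansions, by a log2 fold change of 0.86 ± 0.25 in teratoma-derived cells and 1.20 ± 0.25 in satellite cells (edgeR adjusted p = 0.0292 and 0.0039). Myh10 rose in satellite cells (1.38 ± 0.29, edgeR adjusted p = 0.00457) and gave -0.84 ± 0.29 in teratoma-derived cells (0.0581). Myh14 fell in satellite cells (-2.18 ± 0.77, edgeR adjusted p = 0.0467) and gave -0.59 ± 0.72 in teratoma-derived cells (0.582).

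Actg2, the γ-actin of visceral smooth muscle, lies at chr6:83512905-83536265 on the minus strand. It was found at 537.5 and 263.3 normalised counts in TF, 253.1 and 175.0 in TE, 147.8 and 110.6 in SF, and 0.715 and 12.9 in SE. TE was just below TF, without overlap, and the difference did not pass (log2 fold change -0.85 ± 0.69, edgeR adjusted p = 0.392). SE rested on 1 and 15 counts, and the pooled level in SF was 20.5 times that in SE (95% counting interval 12.4 to 36.6; edgeR adjusted p = 0.00416). Leaving out the first SE library gave a log2 fold change of -3.09, and leaving out the second gave -7.08, a spread that the counting interval does not cover.

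Cnn1, or calponin, which slows myosin on smooth muscle actin, lies at chr9:22099216-22109630 on the plus strand. It had the lowest level per kilobase of the 10 genes in TF and SF, with normalised counts of 215.5 and 105.8 in TF, 69.6 and 50.1 in TE, 147.8 and 60.4 in SF, and 9.30 and 0.858 in SE. The fresh groups overlapped, and the SE libraries, with 13 and 1 counts, were below all others. TE against TF gave -1.37 ± 0.87 (edgeR adjusted p = 0.268). The pooled level in SF was 18.6 times that in SE (95% counting interval 10.8 to 34.8; edgeR adjusted p = 0.00952). Without the first SE library this gave -6.50 on the log2 scale, without the second -3.26 and without the first SF library -3.35. Its paralogs moved the other way: Cnn2 rose by a log2 fold change of 1.43 ± 0.30 and 3.07 ± 0.32 in teratoma-derived and satellite cells (edgeR adjusted p = 0.00702 and 8.38e-05). Cnn3 rose in satellite cells (0.73 ± 0.20, edgeR adjusted p = 0.0162) and gave 0.58 ± 0.20 in teratoma-derived cells (0.0569). Cnn3 held 81.1% to 96.6% of the calponin level per kilobase over the 8 libraries.

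Pdgfrb, the receptor through which PDGF-B attracts pericytes, lies at chr18:61045150-61085061 on the plus strand. Its normalised counts were 4149 and 4495 in TF, 597.6 and 442.5 in TE, 1461 and 1902 in SF, and 262.5 and 408.5 in SE. It fell without overlap in both expansions, with log2 fold changes of -3.0 ± 0.28 in teratoma-derived cells (edgeR adjusted p = 6.7e-05) and -2.14 ± 0.27 in satellite cells (0.000247). Both expanded groups still stood near the middle of tested genes per kilobase, between the 45.5th and the 61.2nd percentile. Pdgfb, its ligand, which endothelial cells make, was at 35.5 to 162.3 normalised counts in all libraries and did not pass in either expansion (-1.10 ± 0.79 and -0.03 ± 0.78, edgeR adjusted p = 0.329 and 0.983). Pdgfra, the related receptor of fibro-adipogenic cells, fell from 4158 and 4320 in TF to 8.99 and 3.08 in TE, and from 1438 and 2115 in SF to 40.1 and 21.5 in SE. The log2 fold change of Pdgfra was -9.37 ± 0.48 and -5.65 ± 0.39 (edgeR adjusted p = 3.13e-06 and 8.15e-06). Of the 5 other genes of the PDGF pathway (Pdgfa, Pdgfb, Pdgfc, Pdgfd and Pdgfra), only Pdgfra passed between TF and TE, falling. Between SF and SE, Pdgfc rose and Pdgfra fell.

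Abcc9 encodes SUR2, the regulatory subunit of the ATP-sensitive potassium channel, and lies at chr6:142587862-142702315 on the minus strand. It was at 1812 and 1478 normalised counts in TF, 486.0 and 505.0 in TE, 1897 and 2010 in SF, and 308.3 and 450.5 in SE. It fell in both expansions, with log2 fold changes of -1.68 ± 0.23 and -2.17 ± 0.23 (edgeR adjusted p = 0.000666 and 9.42e-05), and these calls held in every setting run. Kcnj8, which encodes the pore that pairs with SUR2 in pericytes, behaved otherwise: it was at 375.2 and 376.5 in TF and 228.0 and 232.6 in SF, and at 0 in all 4 expanded libraries. Kcnj8 was thus at least 165-fold lower in TE than in TF and at least 97.6-fold lower in SE than in SF (edgeR adjusted p = 7.55e-05 and 6.93e-05). Kcnj11, another pore gene of ATP-sensitive potassium channels, and Abcc8, a paralog of Abcc9, did not pass in either expansion. Exons of Abcc9 overlap 158 bases of 5330439B14Rik on the opposite strand.

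Cspg4 encodes the proteoglycan NG2, a surface marker of pericytes and of glial progenitors, and lies at chr9:56865033-56899870 on the plus strand. It varied least of the 10 genes by the ratio of the highest to the lowest library, with 785.5 and 885.9 normalised counts in TF, 362.4 and 464.1 in TE, 600.0 and 677.4 in SF, and 311.8 and 547.5 in SE. The log2 fold change of TE over TF was -0.96 ± 0.30 (edgeR adjusted p = 0.0392). That call was lost when any TF or TE library was left out (0.0886 to 0.262) and when the test was made against the fold threshold itself (glmTreat, 0.0691). SE against SF gave -0.38 ± 0.30 (edgeR adjusted p = 0.315).

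Mcam encodes CD146, an adhesion protein of pericytes, smooth muscle, endothelium and some muscle progenitors, and lies at chr9:44134469-44142727 on the plus strand. It was at 708.9 and 461.4 normalised counts in TF, 743.6 and 845.7 in TE, 890.5 and 737.8 in SF, and 218.9 and 321.8 in SE. TE was slightly above TF without passing (0.50 ± 0.28, edgeR adjusted p = 0.219), while SE was below SF in both libraries (-1.40 ± 0.29, edgeR adjusted p = 0.00392). Its exons overlap 17 bases of Gm10687 on the opposite strand.

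**Figure D3:**
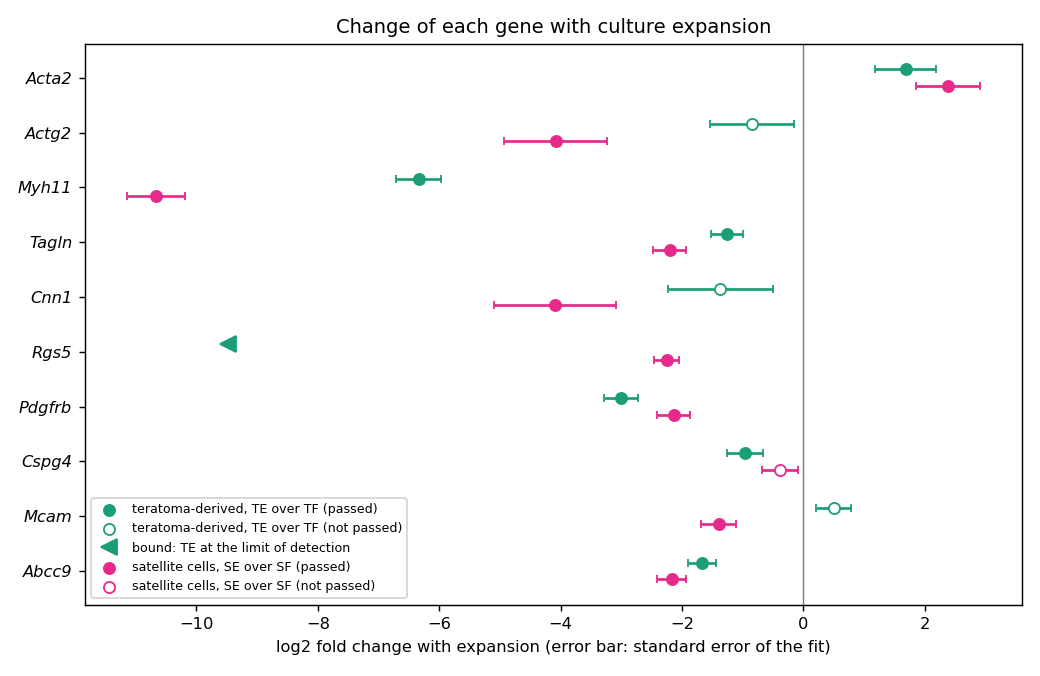
Log2 fold change of each of the 10 genes with expansion, TE over TF (green) and SE over SF (pink). Bars give the approximate standard error derived from the F statistic of the test. Filled points passed the test and open ones did not. The triangle for Rgs5 marks a bound (at least 711-fold lower), since TE was at the limit of detection. Acta2 alone was called higher, with 1.68 and 2.38.

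Rgs5 encodes a regulator of G protein signalling, is among the most widely used pericyte markers, and lies at chr1:169655501-169695813 on the plus strand. Its normalised counts were 1832 and 1411 in TF, 0 and 0 in TE, 5484 and 5001 in SF, and 943.4 and 984.3 in SE. No count was found in either TE library, while SE held a summed count of 2466. The level in TE was at least 711-fold lower than in TF (edgeR adjusted p = 2.12e-06) and at least 423-fold lower than in SE (6.15e-06), counted against the limit of 3 counts in each TE library. The log2 fold change of SE over SF was -2.25 ± 0.20 (edgeR adjusted p = 6.24e-05). Per kilobase Rgs5 was second of the 10 genes in SF and in SE and last in TE. In SE it stood at the 77.9th to 79.4th percentile of tested genes.

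The Rgs5 neighbourhood was looked at after these values were seen. Rgs4, a paralog whose start lies 92.1 kb from the start of Rgs5, was at 179.2 and 158.7 normalised counts in TF, 0 and 0 in TE, 2192 and 2748 in SF, and 284.0 and 306.4 in SE. Rgs4 was at least 74.1-fold lower in TE than in TF and at least 129-fold lower than in SE (edgeR adjusted p = 7.43e-06 and 2.5e-05). SE over SF gave -2.88 ± 0.24 on the log2 scale (edgeR adjusted p = 4.3e-05). Some other genes within 500 kb kept counts in TE: Nuf2 was at 365.4 and 346.1, Hsd17b7 at 137.8 and 168.8, and Ddr2 at 2250 and 2125. Ccdc190 was at 0 in both TE and both SE libraries, from 7.64 to 56.6 in the fresh ones. The gene 3110045C21Rik was low throughout, with 10.4 and 0 in TF, 3.0 and 0 in TE, 29.3 and 22.8 in SF, and 27.2 and 3.43 in SE. Rgs2 and Rgs16, paralogs elsewhere on the chromosome, were not both lost: Rgs2 fell in both expansions (-5.30 ± 0.55 and -4.11 ± 0.50, edgeR adjusted p = 0.00012 and 0.000185), and Rgs16 did not pass in either.

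**Figure D4:**
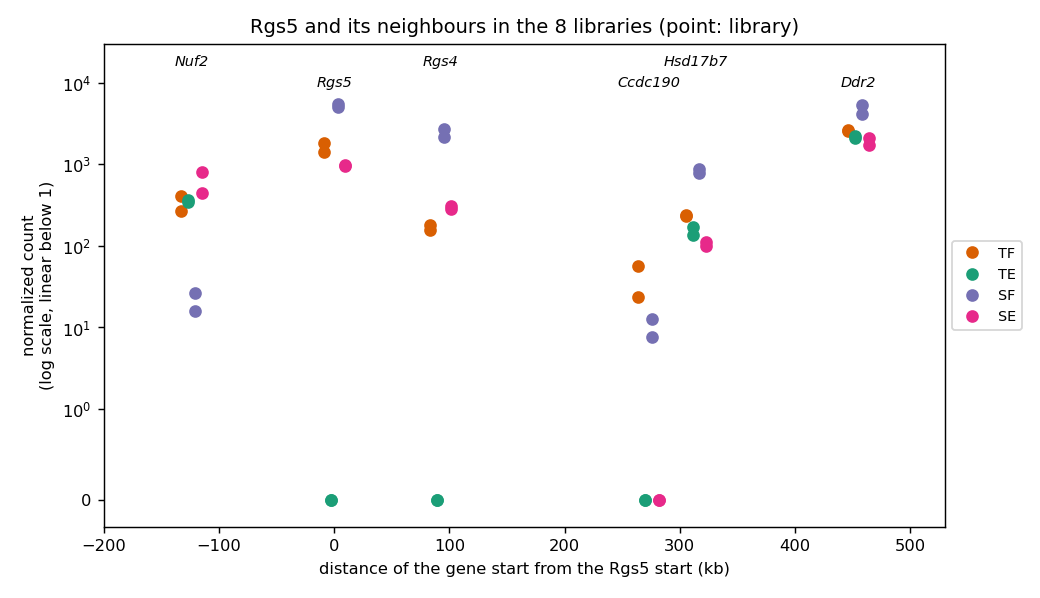
Normalised counts (log scale, linear below 1) of Rgs5 and of 5 neighbours within 500 kb that reached at least 50 in some library, by distance of the gene start from the Rgs5 start (kb), with a point for each library. In TE, Rgs5, Rgs4 and Ccdc190 were at 0 while Nuf2, Hsd17b7 and Ddr2 were at 137.8 or above.

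The genes whose pattern over the 8 libraries was most like that of Rgs5 were Rgs4, Galnt17, Sim2, Thbd and Clmp, in that order, at root mean square differences of 1.18 to 1.54 on the centred log2 scale. In TE they had between 0 and 6.74 normalised counts. In SE they had between 125.2 and 870.4. Thbd, which encodes thrombomodulin of the endothelial surface, was at 391.2 and 156.2 in SE, and Clmp, a junction adhesion protein, at 870.4 and 337.2.

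The comparisons of TE with SE and of TF with SF share their libraries with the expansion comparisons. In TE against SE, the expanded groups, 4 of the 10 genes were higher in TE (Actg2, Myh11, Tagln and Mcam), 1 was lower (Rgs5) and 5 did not pass. Over all tested genes 3.15% were called higher and 4.07% lower, and the median log2 fold change was 1.16 for the 10 genes and 0.00 over all genes. Tagln was higher by 2.06 ± 0.27 on the log2 scale (edgeR adjusted p = 0.00206), and Mcam by 1.58 ± 0.29 (0.0105, or 0.0511 without the second TE library). For Actg2 the pooled level in TE was 34.4 times that in SE (95% counting interval 21.0 to 60.6; edgeR adjusted p = 0.0082). Actg2 is on chromosome 6, where the median log2 fold change of TE over SE was 0.53 over 633 genes, against -0.01 on the other chromosomes. Actg2 gave 4.07 on the log2 scale without the first SE library and 8.04 without the second. For Myh11 the ratio was 9.25 (4.46 to 22.2, edgeR adjusted p = 0.00647), from 76 and 8 counts, and the call was lost when only TE and SE entered the fit (0.155). Its log2 fold change was 2.49 without the first SE library and 4.26 without the second. Cnn1, at 11.0 times the pooled SE level (6.36 to 20.6), did not pass (edgeR adjusted p = 0.064) but passed with DESeq2 (0.00581), with no filter (0.00189) and without the first SE library (0.012), the second TF library (0.0465) or the second SF library (0.0441).

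Acta2 in TE against SE gave 0.75 ± 0.50 (edgeR adjusted p = 0.464), and both TE libraries were above both SE libraries. It passed with no filter on low counts (0.0331). Without the second SE library, it was higher in TE by a log2 fold change of 2.14 (edgeR adjusted p = 9.39e-05). Without the first it gave 0.07. Pdgfrb (0.66 ± 0.26), Abcc9 (0.41 ± 0.23) and Cspg4 (-0.03 ± 0.30) did not pass, with edgeR adjusted p-values of 0.201, 0.373 and 1, and Abcc9 also lies on chromosome 6. Pdgfrb passed without the second SE library, at a log2 fold change of 1.02 (edgeR adjusted p = 0.0313). The TE and SE libraries of Cspg4 overlapped.

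In the comparison of the fresh groups, TF against SF, Tagln (1.12 ± 0.26, edgeR adjusted p = 0.0136) and Pdgfrb (1.52 ± 0.26, 0.00345) were higher in TF, and Myh11 (-1.14 ± 0.28, 0.0176) and Rgs5 (-1.53 ± 0.20, 0.0012) were lower. Thus 2 genes were called higher, against 15.1% of tested genes, and 2 lower, against 9.13%, with 6 that did not pass. Median-ratio scaling moved the split of all calls from 62.3% higher to 52.1% higher. Leaving out Rn45s alone moved it to 53.3%. That gene took 12.1% and 7.99% of the counts in TF and 19.9% and 21.3% in SF. The 10 genes had a median log2 fold change of 0.67, against 0.08 over all tested genes. The calls of Myh11 and Tagln were lost without the second TF library (edgeR adjusted p = 0.127 and 0.0657) and without the first SF library (0.0684 and 0.0783). Acta2 (1.45 ± 0.51, 0.0652) and Actg2 (1.79 ± 0.71, 0.0978) lay above SF in both TF libraries without passing. On chromosome 6, which holds Actg2 and Abcc9, the median log2 fold change of TF over SF was 0.76, against 0.21 on the other chromosomes. Acta2 and Actg2 both passed with no filter on low counts, when only TF and SF entered the fit, and when either SE library was left out. Abcc9 (-0.09 ± 0.22, 0.816), Cspg4 (0.55 ± 0.30, 0.213), Mcam (-0.32 ± 0.28, 0.464) and Cnn1 (0.80 ± 0.86, 0.549) did not pass.

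The difference between the expansion effects, that is, the change from TF to TE minus the change from SF to SE, was higher for Myh11 (4.32 ± 0.59, edgeR adjusted p = 0.0018) and Mcam (1.89 ± 0.40, 0.0134) and lower for Rgs5 (3.35e-05, with no size since TE was at the limit). The other 7 did not pass. Over all tested genes 4.7% were called higher and 9.62% lower. The split of all calls moved from 32.8% higher to 43.9% higher with DESeq2 and to 41.4% without Rn45s. The members had a median log2 difference of 0.72, against -0.18 over all tested genes. Acta2 gave -0.70 ± 0.70 (edgeR adjusted p = 0.579), and its sign turned without the second SE library (0.68). Without the first SE library it was -1.39 (edgeR adjusted p = 0.008). Actg2 gave 3.24 ± 1.07 (edgeR adjusted p = 0.0757) and passed with DESeq2 (0.0199), with no filter (0.000287) and without the second SE library (6.24, 0.00106). Tagln gave 0.94 ± 0.37 (edgeR adjusted p = 0.126) and passed with DESeq2 (0.0433), with no filter (0.045) and without the second SE library (0.0126). Cnn1 gave 2.73 ± 1.27 (0.19) and Pdgfrb -0.86 ± 0.37 (0.158), and both passed without the first SE library, at 5.16 (edgeR adjusted p = 0.0294) and -1.14 (0.0357). The difference of Myh11 was 3.63 without the first SE library and 5.40 without the second.

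Wider mural and smooth muscle lists placed the 10 genes in context. Of 19 tested genes of a mural identity list, 16 fell and none rose between TF and TE, and 13 fell and none rose between SF and SE, with median log2 fold changes of -4.29 and -3.15, the same when genes at the limit were set to their bounds. Vtn, which encodes the matrix protein vitronectin that pericytes make, went from 542.7 and 436.8 in TF and 1335 and 1503 in SF to 0 in all 4 expanded libraries. It was at least 215-fold lower in TE than in TF and at least 601-fold lower in SE than in SF (edgeR adjusted p = 1.28e-05 and 5.44e-06). Notch3, a receptor of mural cells and of satellite cells, remained at 3226 and 3155 in TE and 2630 and 2322 in SE, from 9257 and 13371 in TF and 14660 and 16898 in SF. Its log2 fold changes were -1.77 and -2.48 (edgeR adjusted p = 0.000415 and 4.17e-05). Of the 20 mural genes, 6 were at the limit in both TE libraries (Kcnj8, Higd1b, Vtn, Gja4, Ednrb and Ebf2) and 5 in both SE libraries (Kcnj8, Vtn, Gja4, Gucy1a1 and Gucy1b1).

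The smooth muscle contractile list, by contrast, split. Of its 20 genes, 6 rose and 5 fell between TF and TE, and 7 rose and 8 fell between SF and SE, with medians of 0.31 and 0.16. Tpm2 and Tpm1, tropomyosins shared by smooth and skeletal muscle, and Nexn, an actin-binding protein of the Z-disc, were among those that rose. Tpm2 had log2 fold changes of 2.81 ± 0.33 and 4.07 ± 0.35 (edgeR adjusted p = 0.000272 and 2.73e-05), Nexn 2.61 ± 0.19 in teratoma-derived cells (1.86e-05), and Tpm1 3.20 ± 0.21 in satellite cells (6.14e-06). Among those that fell were Itga8, the α8 integrin of smooth muscle, with -6.87 ± 0.73 and -4.78 ± 0.64 (edgeR adjusted p = 0.00014 and 0.000344). Mylk, the kinase that activates smooth muscle myosin, had -5.31 ± 0.40 in teratoma-derived cells (1.9e-05), and Kcnmb1, a subunit of the smooth muscle calcium-activated potassium channel, had -4.48 ± 0.82 in satellite cells (0.00207). The summed level of the list was 63781 to 64694 in TF and 106185 to 107615 in TE, and 53793 to 53868 in SF and 110040 to 111091 in SE. Tpm2 and Tpm1 held much of this rise, so the sum does not follow the list as a whole. Tpm2 had means of 3273 in TF, 22087 in TE, 1676 in SF and 24588 in SE, and Tpm1 7133, 18213, 3283 and 26409. The SE sums were close although Flna (24003 and 9639) and Tpm2 (17374 and 31801) differed in opposite directions between these libraries.

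Of 8 regulators that act on SRF targets, 2 fell between TF and TE and 4 between SF and SE, and none rose. Over all tested genes 16.2% fell and 9.86% rose between TF and TE, and 19.8% fell and 20.9% rose between SF and SE. Srf itself was at 1762 and 1618 normalised counts in TF, 1622 and 1533 in TE, 1837 and 3069 in SF, and 987.7 and 1215 in SE, with log2 fold changes of -0.04 ± 0.25 (edgeR adjusted p = 0.921) and -0.97 ± 0.26 (0.0138). Myocd, which encodes the cardiac and smooth muscle coactivator myocardin, was low throughout, with 89.6 and 70.1 in TF, 19.5 and 23.1 in TE, 132.5 and 70.7 in SF, and 10.7 and 1.72 in SE. It gave -1.85 ± 0.95 (0.176) in teratoma-derived cells and fell in satellite cells (-3.79 ± 1.03, edgeR adjusted p = 0.016). Of the 16 paralogs of the 10 genes, 4 rose and 2 fell between TF and TE, and 6 rose and 4 fell between SF and SE. Tagln2 was among those that fell in satellite cells (-0.97 ± 0.27, edgeR adjusted p = 0.0166) and gave -0.53 ± 0.27 in teratoma-derived cells (0.168), and Tagln3 was near the limit.

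Markers of other cell types fell along with the members that fell. Of 10 endothelial genes, 9 fell in each expansion, and the summed level came to 39.3 to 50.2 in TE and 109.0 to 118.7 in SE, with Kdr, Tie1, Emcn and Cldn5 at the limit in both groups and Cdh5 also in SE. All 8 fibro-adipogenic genes fell between TF and TE and 7 of 8 between SF and SE, to sums of 201.4 to 232.8 and 544.3 to 1243. Col15a1 held most of these sums, at means of 161.8 in TE and 772.7 in SE. Of 7 tested blood-cell genes, 7 and 4 fell, to sums of 11.2 to 30.8 in TE and 29.3 to 98.7 in SE. Of 6 Schwann cell genes, 2 and 3 fell. Of 7 myogenic genes, 4 rose and 3 fell between TF and TE, and 2 rose and 3 fell between SF and SE. The part of these other cells in the levels of the 10 genes was not tested. The sums in SE lay above those in TE for the endothelial, fibro-adipogenic and Schwann cell lists (105.5 to 161.6 against 71.1 to 90.2 for the last), where 1 of 10, 3 of 8 and 0 of 6 genes were called lower in TE than in SE and none higher. The mural identity sum went the other way, with 5646 to 5871 in TE and 3666 to 3969 in SE. Notch3 and Heyl held most of it, at means of 3191 and 1465 in TE and 2476 and 428.4 in SE. The sum therefore follows these genes and not the list as a whole. Of its 19 tested genes, 2 were higher in TE (Heyl and Ebf1) and 2 lower (Ednrb and Ebf2).

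The first TF library held more RNA of endothelial and blood-cell marker genes than the second, with sums of 5244 against 1616 and 6106 against 524.1. The second held more of the mural identity list (27770 against 21980), mainly through Notch3 (13371 against 9257) and Heyl (5282 against 4014). Other genes of that list went either way, such as Vtn (436.8 against 542.7) and Ebf1 (756.7 against 485.6). Without the first TF library, 5 of the 10 genes were called lower and none higher in TE, against 2108 lower and 1064 higher over all tested genes. Without the second, these numbers were 5 and 0 for the 10 genes and 2334 and 940 over all. The calls of Acta2 and Cspg4 were lost without the first TF library (edgeR adjusted p = 0.0991 and 0.0886) and without the second (0.0749 and 0.172). Myh11, Actg2, Cnn1, Mcam, Rgs5 and Abcc9 were higher in the first TF library, and Acta2, Tagln, Pdgfrb and Cspg4 were higher in the second.

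**Figure D5:**
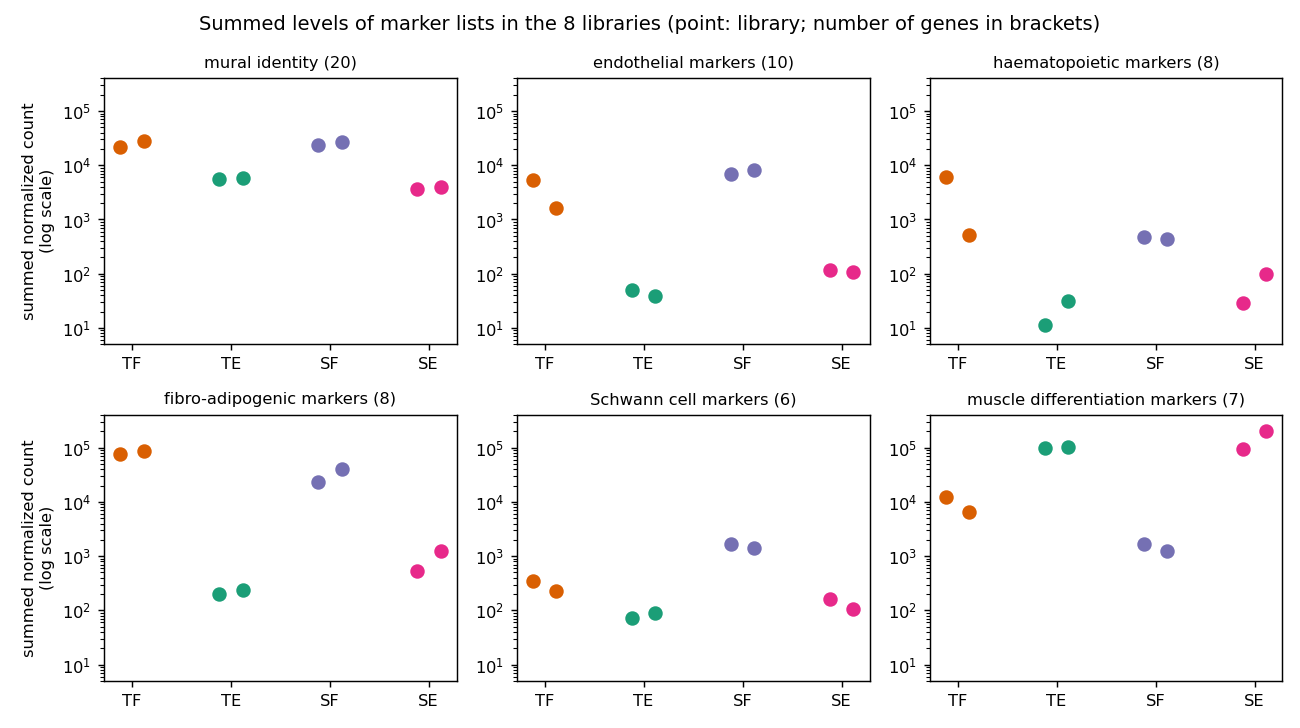
Summed normalised counts (log scale) of 6 marker lists in TF, TE, SF and SE, with a point for each library and the number of genes in brackets. The endothelial, blood-cell, fibro-adipogenic, Schwann cell and mural sums were lower in every expanded library than in the fresh libraries of the same origin, and the muscle differentiation sums were higher.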

How the data were processed

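The authors sequenced total RNA (SMARTer Stranded Total RNA-Seq Pico v2, paired-end) and deposited 1 table of estimated counts, not normalised, for 24980 genes in 8 libraries. The submitters' processing notes name CASAVA, kallisto 0.44.0 and GRCm38 (mm10). Their roles, and how transcripts were summed to genes, are not given in the sources used here. Kallisto shares reads between alike transcripts, so paralogs are uncertain. Between 74.4% and 84.4% of the values were exactly whole as written (tolerance 0), and the rest were rounded. Rn45s (ribosomal RNA) took 7.99% to 21.3% of the counts.

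Groups and replicates came from the sample titles. Tests used edgeR 4.0.16 (R 4.3.3): filterByExpr, TMM and quasi-likelihood over all 8 libraries, with Benjamini-Hochberg adjustment over 17582 genes and 5 comparisons run. The p-values rest on the spread between 2 biological replicates a group, with the spread estimated jointly over all 4 groups. Replicates differed beyond sampling noise. Levels used DESeq2 1.42.0 size factors, and per-kilobase levels the longest GENCODE M21 coding transcript. Alternatives were DESeq2, median-ratio factors, no filter, only the groups compared, a replicate block, glmTreat, Rn45s left out, each library left out and TMM levels. The test was checked on simulated data.

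The 10 genes and all lists (mural identity, smooth muscle contractile, SRF regulators, PDGF pathway, paralogs, myogenic, muscle differentiation, endothelial, haematopoietic, fibro-adipogenic and Schwann cell) were chosen with earlier results of these data known. Named genes were the members, their paralogs, Srf, Myocd, Kcnj8, Notch3 and Pdgfb, the 2 called mural identity and contractile genes per direction with the largest fold change (mean of at least 50) in each expansion, and the 5 genes most alike to Acta2 and to Rgs5. Others, such as Pdgfra, Pdgfc, Pax7, Myog and the Rgs5 neighbours, were named after their values were seen.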

Additional observations from a re-analysis of the deposited data

Results flagged for a closer look

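The test of the difference between the expansion effects (the change from TF to TE minus that from SF to SE) passed for at least 21 of the genes named above. Those described here are not a complete list. Over all tested genes 4.7% were called higher and 9.62% lower in this test. Many of the named genes were picked for large changes or after their values were seen, so their count cannot be set against that share. Myh11 fell less in teratoma-derived cells, with a log2 difference of 4.32 (edgeR adjusted p = 0.0018), and Mcam fell in satellite cells and did not pass in teratoma-derived cells, with 1.89 (0.0134). Rgs5 (edgeR adjusted p = 3.35e-05) and Rgs4 (0.000666) fell to 0 in TE and not in SE, so the size of their difference has no meaning beyond the bounds given above. Mylk fell further in teratoma-derived cells, with a log2 difference of -2.37 (0.011). The sarcomeric actins Acta1 (-3.58, edgeR adjusted p = 0.00895) and Actc1 (-4.35, 0.00803), the tropomyosin Tpm1 (-1.79, 0.00288) and the calponin Cnn2 (-1.63, 0.032) rose in both origins and by less in teratoma-derived cells. For Actc1 the SF libraries held 59.9 and 14.8 normalised counts and the TF libraries 1526 and 829.3, so the groups started from unlike levels. Myh10 rose in satellite cells and did not pass in teratoma-derived cells (-2.23, edgeR adjusted p = 0.00698). Myog also rose in both origins and by less in teratoma-derived cells (-6.58, edgeR adjusted p = 0.000832), and Pdgfc rose in satellite cells and did not pass in teratoma-derived cells (-5.24, 0.000129). Like Actc1, Myog and Pdgfc stood higher in TF than in SF. The same held for Acta1 (means of 3430 in TF and 738 in SF), Cnn2 (1019 and 239.3), Tpm1 (7133 and 3283) and Myh10 (7385 and 2101). A smaller rise in teratoma-derived cells therefore goes with a higher starting level for these genes. Pdgfra fell in both origins and further in teratoma-derived cells (-3.72, edgeR adjusted p = 0.00318). Of the 8 fibro-adipogenic genes, 3 were lower in this test and none higher, and only Pdgfra is described here. Ebf1 of the mural identity list fell in both origins and by less in teratoma-derived cells (2.59, edgeR adjusted p = 0.00713). Ednrb (0.00686) and Ebf2 (0.00805) fell to the limit of detection in TE and stayed above it in SE. The other 6 genes were named for their place near Rgs5 or for a pattern like its own. Of the neighbours, looked at after values were seen, Nuf2 rose (-4.94, edgeR adjusted p = 0.000807) and Hsd17b7 fell (2.21, 0.00642) in satellite cells, and neither passed in teratoma-derived cells. These also started from unlike levels, Nuf2 being higher and Hsd17b7 lower in TF than in SF. Galnt17 (-6.93, edgeR adjusted p = 0.00032), Clmp (-6.11, 0.000738), Thbd (-5.94, 0.00263) and Sim2 (0.000691, at the limit in TE) were picked for that pattern. Their passing and their direction follow largely from that choice.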

How the results depend on the processing

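Of 740 refitted log2 fold changes of the 10 genes, 47 changed side of the threshold or sign. The counts of all genes called moved most. DESeq2 called 895 genes higher and 1252 lower in TE against SE (553 and 715 in the edgeR fit), 2626 lower in TF against SF (1606) and 1538 higher in the difference between the expansion effects (826). With no low-count filter 902 genes were higher and 1358 lower in TE against SE, and 1284 were higher in the difference. With only the groups compared, 2667 genes were higher in TE against TF (1733). Members called higher in TF against SF were 4 in place of 2 with no filter and with only the groups compared. Members called higher in the difference were 4 in place of 2 with DESeq2 and with no filter.

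Leaving out 1 library at a time gave 811 to 2116 genes higher in TE against TF, 272 to 741 higher and 381 to 957 lower in TE against SE, 1693 to 3119 higher and 932 to 1986 lower in TF against SF, and 457 to 1074 higher and 1010 to 1922 lower in the difference. Where it left a group with 1 library, that library was assumed to vary like the other groups. Members called ranged from 0 to 1 higher in TE against TF, from 1 to 4 higher and 1 to 2 lower in TF against SF, and from 2 to 4 higher and 1 to 3 lower in the difference. The sign turned for Cspg4 in TE against SE (-0.38 to 0.44), Abcc9 in TF against SF (-0.24 to 0.044) and Acta2 in the difference (-1.39 to 0.68), of which Acta2 without the first SE library passed. The causes were not tested. The number of libraries, 2 a group, and the counts of 1 to 15 in SE for Actg2, Myh11 and Cnn1 limit the precision.

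Libraries of the same replicate number shared little deviation, with correlations between -0.0264 and 0.0755. The sample titles do not say whether they were paired by origin, and these correlations cannot settle it. With a replicate block 1609 genes were higher and 2712 lower in TE against TF, and Cnn1 in TE against SE passed (log2 fold change 3.87, edgeR adjusted p = 0.0268), which was the only member call that changed.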
